A study of Mus musculus with 10 samples.

Results

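The genes described here are 10 membrane and metabolic genes chosen by symbol. They are Tmem242, Serac1 and Mpc1 with its partner Mpc2, whose proteins work in mitochondria, Sft2d1, Zdhhc14, Sytl3 and Tmem181a, which act at or in other membranes, the centriole gene Fgfr1op; and Prr18. All but Mpc2 lie in the centromeric part of mouse chromosome 17 (Mmu17) that the Ts65Dn mouse, a model of Down syndrome, carries in 3 copies. Gene expression was measured in the hippocampus with the Affymetrix Mouse Gene 1.0 ST array in 5 Ts65Dn males and 5 control littermates, all 16 weeks old and on an F1 hybrid B6C3B background, with the right and left hippocampus of a mouse joined in 1 sample. Ts65Dn mice carry an additional minichromosome made of a distal part of chromosome 16 (Mmu16), whose genes have homologues on Hsa21, the human chromosome that Down syndrome adds, fused to the start of Mmu17, whose genes do not. Control mice carry 2 copies of both parts. Of the 10 genes, 8 had a row of their own in the array table, 1 (Tmem181a) was measured only in a row shared with its relatives Tmem181b-ps and Tmem181c-ps, and 1 (Mpc2, chromosome 1) had no row analysed here. The 8 genes had 10 of the 23410 tested rows, 9 of them with distinct values, and were 8 of the 31 measured genes of the Mmu17 segment and of the 19937 genes with a row of their own.

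The Mmu17 part of the minichromosome is known as the portion of Ts65Dn that has no counterpart in Down syndrome, so its genes are read apart from the homologues of Hsa21. Mpc1 and Mpc2 form the mitochondrial pyruvate carrier, which brings pyruvate made by glycolysis across the inner mitochondrial membrane, and neither subunit makes the carrier alone. Tmem242 is known from human cells as an inner membrane protein that helps to assemble the ATP synthase, and Serac1 is known, also from human cells, for the exchange of lipids between mitochondria and the endoplasmic reticulum that phosphatidylglycerol remodelling needs.

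The promoters of the 3 genes that passed the test below and of Sytl3, which differed least between genotypes, are shown first. The 3 were picked for passing and not for the size of their difference. Serac1, which did not pass, had a log2 difference of 0.51, between Tmem242 at 0.58 and Sft2d1 at 0.44. Each is the 250 bases before a start site that RefSeq (GRCm38.p6) lists for the gene, written 5′ to 3′ on the strand of the gene. A listed start site need not be the outermost one, and the Sytl3 window lies inside the extent of the gene given below, while the end of the Sft2d1 window runs past the first base of that gene. Capitals mark matches, on either strand, to the GC box GGGCGG, the ETS site CCGGAAGT, the NRF1 site, the CCAAT box CCAAT and the TATA box TATAAA. None of the matches in these 4 promoters overlapped another.
Tmem242 (chr17:5440261-5440510, minus strand): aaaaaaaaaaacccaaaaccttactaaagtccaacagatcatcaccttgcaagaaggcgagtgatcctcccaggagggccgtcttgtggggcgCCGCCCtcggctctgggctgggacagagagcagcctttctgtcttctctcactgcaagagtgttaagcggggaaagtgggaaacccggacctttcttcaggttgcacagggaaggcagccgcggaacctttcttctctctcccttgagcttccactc
Mpc1, first of the listed starts (chr17:8283537-8283786, plus strand): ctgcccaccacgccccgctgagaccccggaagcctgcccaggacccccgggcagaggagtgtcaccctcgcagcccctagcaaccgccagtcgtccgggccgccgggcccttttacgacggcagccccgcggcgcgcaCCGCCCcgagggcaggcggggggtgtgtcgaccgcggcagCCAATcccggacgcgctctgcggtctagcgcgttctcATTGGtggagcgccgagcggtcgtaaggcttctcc
Sft2d1 (chr17:8310853-8311102, plus strand): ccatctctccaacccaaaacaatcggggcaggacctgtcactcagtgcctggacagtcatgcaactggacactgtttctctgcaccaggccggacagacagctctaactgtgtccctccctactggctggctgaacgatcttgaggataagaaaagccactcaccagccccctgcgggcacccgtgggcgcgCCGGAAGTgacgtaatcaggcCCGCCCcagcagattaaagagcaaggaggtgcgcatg
Sytl3 (chr17:6658809-6659058, plus strand): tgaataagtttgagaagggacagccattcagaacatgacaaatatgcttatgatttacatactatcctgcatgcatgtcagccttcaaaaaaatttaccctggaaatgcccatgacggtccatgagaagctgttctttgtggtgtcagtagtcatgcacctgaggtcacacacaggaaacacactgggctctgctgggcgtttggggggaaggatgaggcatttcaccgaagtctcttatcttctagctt

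The Tmem242 promoter held 1 GC box, that of Mpc1 1 GC box and 2 CCAAT boxes, and that of Sft2d1 1 GC box and 1 ETS site, while the Sytl3 window, inside the gene, held none of the 5 motifs. The GC content was 54.4% for Tmem242, 73.6% for Mpc1, 58.8% for Sft2d1 and 45.2% for Sytl3, against a median of 52.4% over the 32851 promoters of this length. The ratio of observed to expected CpG dinucleotides was 0.488 for Tmem242, 0.952 for Mpc1, 0.514 for Sft2d1 and 0.236 for Sytl3, against a median of 0.373. These Mpc1 values are those of its first start. The second, not printed, had 1 GC box, no CCAAT box, a GC content of 65.6% and a ratio of 0.669. Of all promoters, 34.9% had a lower ratio than Sytl3. RefSeq listed 12 promoters for 9 of the 10 genes, and 10 of the 12 held a GC box, which 32.7% of all promoters did. Members that did not pass were among them, with 2 GC boxes for Serac1 and 3 for Fgfr1op, whose window, like that of Sytl3, lies inside the gene. Those without were the Sytl3 window and the first Prr18 start. The NRF1 site and the TATA box were found in none of the 12, and in 0.782% and 12.4% of all promoters. Among the 12 the ETS site was found only for Sft2d1, and it was in 2.88% of all promoters. The CCAAT box was found for Mpc2 and for the first starts of Mpc1, Tmem181a and Prr18, and in 33.8% of all promoters. These are matches of letters and not measured binding.

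The first question was whether the members in 3 copies gave more transcript in trisomic hippocampi. Tmem242, Mpc1 and Sft2d1 were higher in Ts65Dn mice than in their littermates, by 1.49-fold, 1.33-fold and 1.36-fold. Thus 3 of the 8 genes passed the threshold of a limma adjusted p of 0.05 and 0 were lower, while 0.312% of the 23410 tested rows were called higher and 0.00427% lower. Counted by rows, 5 of 10 passed, or 4 of the 9 with distinct values. All 8 genes had positive differences, with a median fold of 1.33 against 0.998 over all tested rows, and 6 of the 8 had an unadjusted limma p under 0.05 in the higher direction, as did 1.73% of tested rows, and 0 in the lower direction, as did 1.43%. For 4 of the 8 every Ts65Dn mouse was above every control, as for 0.577% of tested rows, and for 0 every Ts65Dn mouse was below, as for 0.308%. A rank method on the fold changes of all 25 pairs of arrays called 7 of the 8 higher, all but Sytl3, and 0 lower, beside 2.89% of tested rows called higher and 2.47% lower. The values are RMA log2 signals, and levels are not compared between genes, since each row has its own probes. In whole hippocampus a change in the number of cells of a type and a change in RNA per cell cannot be told apart.

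**Figure D1:**
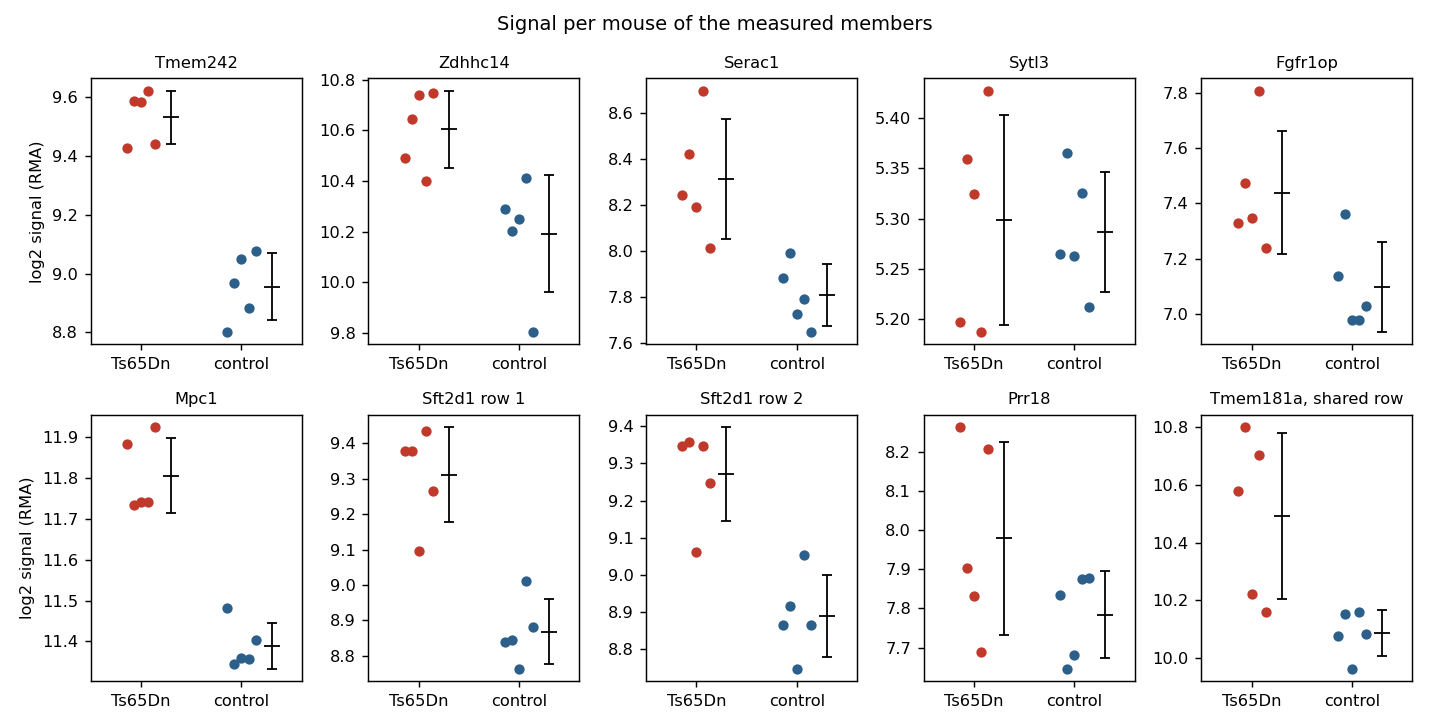
Log2 signal (RMA) of each mouse in Ts65Dn (red, left) and control (blue, right) hippocampi, with a panel and a vertical axis of its own for each row of the members. Bars show the mean ± SD of 5 mice, and the third Sft2d1 row, identical to the second, is not drawn. The groups were separate for Tmem242, Mpc1, Serac1, Sft2d1 and the row shared by Tmem181a, and Sytl3 had mixed groups.

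Among the mitochondrial genes Tmem242 (chr17:5410864-5440260) had the widest gap between the genotypes. Its log2 signals were 9.43, 9.59, 9.58, 9.62 and 9.44 in Ts65Dn mice 1 to 5, against 8.80, 8.97, 9.05, 8.88 and 9.08 in control mice 1 to 5. The lowest Ts65Dn mouse was 0.352 above the highest control, and the Ts65Dn values lay in a band of about the same width as the control ones, with SDs of 0.0905 and 0.114. The log2 difference was 0.58 ± 0.06 (SE, n = 5 per genotype; adjusted p = 0.00184), a fold of 1.49 with a 95% interval of 1.36 to 1.64. This interval contains 1.5, the ratio of 3 copies to 2. Of the other 23 measured genes of the Mmu17 segment, 20 had an interval below 1.5. How closely a fold on this array follows a ratio of transcripts was not tested, here or for the genes below.

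Mpc1 (chr17:8283787-8297667) had log2 signals of 11.88, 11.74, 11.74, 11.74 and 11.92 in Ts65Dn mice, against 11.48, 11.35, 11.36, 11.36 and 11.40 in controls. The groups did not overlap, with a gap of 0.253, and Ts65Dn mice 1 and 5 stood above the other 3, which had nearly the same value. The log2 difference was 0.42 ± 0.05 (SE, n = 5 per genotype; adjusted p = 0.00305) and the fold 1.33, with a 95% interval of 1.24 to 1.44 that lies below 1.5. The identifier of the Mpc1 row falls between those of Mok and Cinp, genes on chromosome 12, and RefSeq places the processed copy Mpc1-ps between these genes, at chr12:110858070-110858954. Probe positions were not used here, so what part of the signal comes from the copy was not tested. Both Tmem242 and Mpc1 passed in each of the 10 fits that left out 1 mouse, with folds of 1.45 to 1.52 for Tmem242 and 1.31 to 1.36 for Mpc1.

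Serac1 (chr17:6040571-6079789) had a fold of 1.42 but did not pass. Per mouse, the log2 signals were 8.24, 8.42, 8.19, 8.70 and 8.01 in Ts65Dn mice, against 7.88, 7.99, 7.73, 7.79 and 7.65 in controls. Every Ts65Dn mouse was above every control by at least 0.0218, and the Ts65Dn mice were more widely spread, with an SD of 0.260 against 0.134 in controls. Trisomic and control mice differed by 0.51 ± 0.11 log2 units (SE, n = 5 per genotype; adjusted p = 0.211), and the 95% interval of the fold, 1.20 to 1.69, contains 1.5. Without any 1 mouse the fold was at least 1.33 and the adjusted p did not go below 0.0707.

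Mpc1 was then read beside the other genes of pyruvate handling, which lie outside both parts of the minichromosome. Of 22 measured genes for pyruvate import, oxidation and lactate exchange, 0 passed in either direction, and their median log2 difference was 0.02, with a range of -0.17 to 0.10. The 95% interval of each of the 22 lay below 1.5-fold, as did that of 99.1% of all tested rows, and the same held for every gene of the lists named below, so the count says nothing particular to them. Slc16a3, a transporter of lactate out of cells, was at 0.09 ± 0.04 (SE) and Pdk1, a kinase that switches off pyruvate dehydrogenase, at 0.10 ± 0.06. Since Mpc2 had no row, the balance of the carrier subunits was not measured.

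The partners of Tmem242 and Serac1 were read in the same way. Of 4 factors that assemble the ATP synthase 0 passed, and Atpaf1, a chaperone of its beta subunit, was at 0.05 ± 0.06 (log2, SE), with Fmc1 at -0.05 ± 0.07. Of 14 genes of cardiolipin and phosphatidylglycerol synthesis and remodelling 0 passed, with a median log2 difference of 0.01. Cds1, which makes the lipid precursor CDP-diacylglycerol, had the lowest value, -0.22 ± 0.09 (adjusted p = 1.00), and 3 of the 5 Ts65Dn mice were below every control. Lpgat1, an acyltransferase of phosphatidylglycerol, was at 0.04 ± 0.05.

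The other membrane genes ranged from a called difference to one near 0. Sft2d1 (chr17:8311088-8327442), the homologue of a yeast protein of transport to the Golgi apparatus, had 3 rows, of which rows 2 and 3 held identical values. In row 1 the log2 signals were 9.38, 9.38, 9.10, 9.43 and 9.27 in Ts65Dn mice, against 8.84, 8.85, 8.76, 9.01 and 8.88 in controls. In rows 2 and 3 they were 9.35, 9.36, 9.06, 9.35 and 9.25 in Ts65Dn mice, against 8.86, 8.92, 8.75, 9.05 and 8.87 in controls. In each row all Ts65Dn mice were above all controls, Ts65Dn mouse 3 being the lowest and control mouse 4 the highest of its group, and in rows 2 and 3 the gap between these mice was 0.00845. The log2 difference was 0.44 ± 0.07 in row 1 (SE, n = 5 per genotype; adjusted p = 0.0163; fold 1.36, 95% interval 1.23 to 1.51) and 0.38 ± 0.07 in rows 2 and 3 (adjusted p = 0.0496; fold 1.30, 1.17 to 1.45).

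The Sft2d1 calls depended on single mice. Row 1 missed the threshold without Ts65Dn mouse 1, 2 or 4 or control mouse 1, 2 or 3 (adjusted p of 0.0506 to 0.0624), and rows 2 and 3 missed it without Ts65Dn mouse 1, 2, 4 or 5 or control mouse 1, 2, 3 or 5 (adjusted p of 0.113 to 0.165), while the fold stayed between 1.27 and 1.41. The identifier of row 2 lies between those of Ccr6 and Prr18, which lie on either side of the gene on Mmu17, that of row 1 between those of Thg1l and Nipal4 on chromosome 11, and that of row 3 between those of Gm1976 and Olfr63, which lie on Mmu17 beyond the segment. Row 1 represents Sft2d1 in the count of genes, and whether its probes measure the gene or a copy of it elsewhere was not tested. Row 1 minus row 2 was 0.0393 ± 0.0281 in Ts65Dn mice and -0.0212 ± 0.0377 in controls (log2, SD, n = 5 each). Their genotype differences thus differed by 0.06 (exact permutation test over mice, two-sided, p = 0.00794, the smallest that 5 against 5 mice allow, and 0.0159 adjusted over the 2 such tests of per-mouse differences), and 5 of 5 Ts65Dn mice were above every control. Of 20 genes of Golgi transport and the Sft2 family 0 passed, with a median log2 difference of 0.01. The SNARE gene Stx6 was at 0.08 ± 0.04 (SE) and Gosr1, another SNARE of this route, at -0.07 ± 0.04.

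Zdhhc14 (chr17:5492562-5753891) encodes an enzyme that attaches palmitate to proteins. Its log2 signals were 10.49, 10.64, 10.74, 10.40 and 10.75 in Ts65Dn mice, against 10.29, 10.20, 10.25, 10.41 and 9.80 in controls. Control mouse 5 lay well below the other controls, and Ts65Dn mouse 4 lay just under control mouse 4, so that 24 of the 25 pairs of a Ts65Dn and a control mouse had the Ts65Dn mouse higher. The log2 difference was 0.41 ± 0.11 (SE, n = 5 per genotype; adjusted p = 0.483; fold 1.33, 95% interval 1.13 to 1.57), and without 1 mouse the fold was 1.24 to 1.38. Of 33 other palmitoyl transferases, their partners and thioesterases 0 passed, with log2 differences of -0.10 to 0.13. The thioesterase gene Lypla2 was at 0.13 ± 0.04 (adjusted p = 0.836) and Zdhhc13 at 0.07 ± 0.04.

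Sytl3 (chr17:6658133-6738070), a synaptotagmin-like protein that binds the vesicle GTPase Rab27, had the difference nearest to 0. Per mouse, the log2 signals were 5.20, 5.36, 5.32, 5.19 and 5.43 in Ts65Dn mice, against 5.27, 5.37, 5.26, 5.33 and 5.21 in controls. The groups overlapped throughout, with the Ts65Dn mouse higher in 12 of 25 pairs and Ts65Dn mouse 5 alone above every control. In the fit the genotypes were apart by 0.01 ± 0.05 log2 units (SE, n = 5 per genotype; adjusted p = 1.00), and the interval of the fold, 0.931 to 1.09, lies below 1.5. The row had a mean under the log2 signal of 6 used as a filter for dim rows, and no background level of the arrays was used here, so a dim signal and an unchanged transcript cannot be told apart. Of 14 other synaptotagmin-like and Rab27 partner genes 0 passed. Exph5, a Rab27 effector, was at 0.20 ± 0.05 (adjusted p = 0.326), with 4 of 5 Ts65Dn mice above every control. Its means, 6.09 in Ts65Dn mice and 5.89 in controls, were close to the filter for dim rows. Sytl5 was at 0.09 ± 0.06, also with 4 of 5 Ts65Dn mice above every control.

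Tmem181a (chr17:6256726-6308314), a predicted multi-pass membrane protein, could be read only through the row it shares with Tmem181b-ps and Tmem181c-ps. The log2 signals of that row were 10.58, 10.80, 10.22, 10.70 and 10.16 in Ts65Dn mice, against 10.08, 10.15, 9.96, 10.16 and 10.08 in controls. All Ts65Dn mice were above all controls, the lowest by 0.00114, and the Ts65Dn mice were spread over a wider range, with an SD of 0.287 against 0.0795. The log2 difference was 0.41 ± 0.12 (SE, n = 5 per genotype; adjusted p = 0.671; fold 1.33, 95% interval 1.11 to 1.58). Which of the 3 genes gave the signal cannot be told apart.

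Fgfr1op (chr17:8165143-8196477), listed as Cep43 in the annotation, encodes a protein of the centriole and the base of the cilium. Its log2 signals were 7.33, 7.47, 7.35, 7.81 and 7.24 in Ts65Dn mice, against 7.14, 7.36, 6.98, 6.98 and 7.03 in controls. Control mouse 2 was above 3 of the Ts65Dn mice, and Ts65Dn mouse 4 stood apart at the top. On the log2 scale the difference was 0.34 ± 0.11 (SE, n = 5 per genotype; adjusted p = 0.917; fold 1.27, 95% interval 1.08 to 1.49), and without 1 mouse the fold was 1.19 to 1.33. Of 17 other genes of the centriole and ciliary base 0 passed. Cep19, known from human cells as a partner of Fgfr1op, was at 0.12 ± 0.06 and Ofd1, a centriole gene, at -0.11 ± 0.09, with 4 of 5 Ts65Dn mice below every control.

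**Figure D2:**
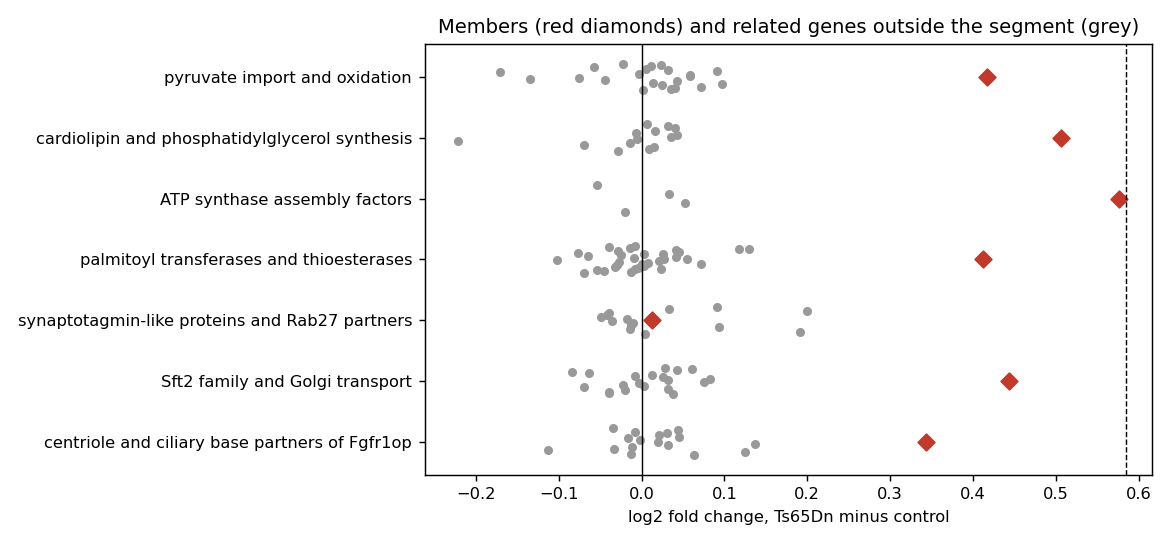
Log2 fold change (Ts65Dn minus control, horizontal axis) of the members with a row of their own other than Prr18 (red diamonds) and of the measured genes of the 7 lists they were read beside (grey points). The dashed line marks 1.5-fold. Apart from Sytl3 at 0.01, the members lay between 0.34 and 0.58, above every grey point of their list, and 0 of the grey points passed the threshold.

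Prr18 (chr17:8340406-8344113), a proline-rich gene known in the brain for its expression in oligodendrocytes, had a small difference. Per mouse, the log2 signals were 8.26, 7.90, 7.83, 7.69 and 8.21 in Ts65Dn mice, against 7.83, 7.65, 7.68, 7.88 and 7.88 in controls. Ts65Dn mice 1 and 5 were well above all others, and the remaining 3 lay within or close to the control range. Ts65Dn mice were at a log2 difference of 0.19 ± 0.11 from controls (SE, n = 5 per genotype; adjusted p = 1.00; fold 1.14), with a 95% interval of 0.975 to 1.34 that contains 1 and lies below 1.5.

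The 2 mice with the highest Prr18 signal, both Ts65Dn, also had the highest mean of oligodendrocyte markers, 1 of them by a very small margin. The mean log2 signal of 13 such markers, which include Mbp and Mog, was 10.74, 10.63, 10.27, 10.48 and 10.93 in Ts65Dn mice, against 10.55, 10.67, 10.55, 10.72 and 10.73 in controls. Ts65Dn mice 5 and 1 were the highest of all 10, but mouse 1, at 10.736, was barely above control mouse 5, at 10.731. Their summed linear signal was 22483 to 33801 in Ts65Dn mice and 27011 to 30631 in controls. Taken as Prr18 minus this mean, the values were -2.47, -2.73, -2.44, -2.79 and -2.72 in Ts65Dn mice, against -2.72, -3.02, -2.87, -2.85 and -2.85 in controls. The means were -2.63 ± 0.164 in Ts65Dn mice and -2.86 ± 0.108 in controls (SD, n = 5 each), a difference of 0.23 (exact permutation test over mice, two-sided, p = 0.0317, also after adjustment over the 2 such tests), although only Ts65Dn mice 1 and 3 were above every control. The test missed the threshold with the median of the markers in place of their mean, at a difference of 0.25 (exact permutation p = 0.111), and without Ts65Dn mouse 1 or 3 or control mouse 2, 3, 4 or 5, at differences of 0.182 to 0.234 (each at an exact permutation p of 0.0635). The marker mean itself differed by -0.04 (exact permutation p = 0.786).

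**Figure D3:**
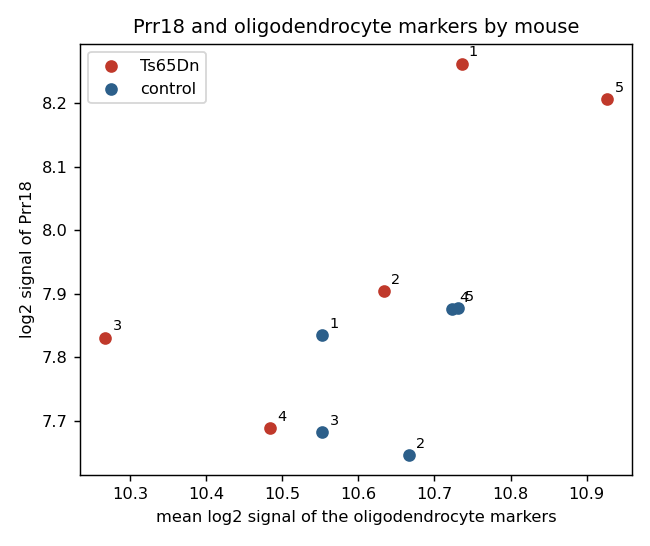
Log2 signal of Prr18 (vertical axis) against the mean log2 signal of the 13 oligodendrocyte markers (horizontal axis) in Ts65Dn (red) and control (blue) mice, each point numbered by mouse. Ts65Dn mice 1 and 5 are highest on both axes, though mouse 1 is barely above control mouse 5 in marker mean. Ts65Dn mouse 3 has the lowest marker mean, 10.27, with a Prr18 value of 7.83.

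The members did not all share an order of mice within a genotype, though some did. Over the 9 rows with distinct values, Ts65Dn mouse 4 was the highest of the trisomic mice in 4 rows, those of Tmem242, Serac1, Fgfr1op and row 1 of Sft2d1. In each of these 4 rows Ts65Dn mouse 2 was the next highest. Mouse 4 was the lowest in 3 rows, those of Zdhhc14, Sytl3 and Prr18. Ts65Dn mouse 5 was highest in 3 rows and lowest in 2. Control mouse 3 was the lowest of its group in 3 rows and the highest in none. The average deviation from the genotype mean was between -0.07 and 0.05 log2 units in every mouse, an average in which rows of opposite order cancel.

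Dissection and cell content were read from marker lists, of which 0 genes passed in any of 8 lists. Markers of the choroid plexus varied most, with list means of 6.81 to 9.72 in Ts65Dn mice and 6.88 to 9.50 in controls (10 of 10 markers measured), and their summed linear signal was 1528 to 21688 in Ts65Dn mice and 1786 to 18719 in controls. In Ts65Dn mice 2 and 4 this mean was highest, at 9.72 and 9.12. These mice also had the highest Serac1, Fgfr1op and shared Tmem181 signals of their genotype. The same held for the called Tmem242 and row 1 of Sft2d1, though mouse 2 was there barely above the next mouse. For Tmem242 it was at 9.586 against 9.583 in mouse 3. Mouse 4 was instead the lowest for Zdhhc14, Sytl3 and Prr18, and mouse 2 for Mpc1. In controls the choroid plexus mean was highest in mouse 5, at 9.50, which had the highest Tmem242 but the lowest Serac1 and Zdhhc14. This mean was next highest in mouse 2, at 8.50, which had the highest Serac1 (7.99) and Fgfr1op (7.36) of the controls. The part of this tissue in these results was not tested. Markers of hippocampal neurons had means of 9.40 to 9.79 in Ts65Dn mice and 9.61 to 9.71 in controls. No background level was used, so these means do not by themselves show which tissue a sample held. Of these 10 markers 1 had an unadjusted limma p under 0.05, and a list mean can hide markers that differ in opposite directions. Means were 8.25 to 8.53 in Ts65Dn mice and 8.22 to 8.74 in controls for thalamus and habenula, 7.62 to 7.93 and 7.67 to 8.03 for striatum, and 10.28 to 10.40 and 10.31 to 10.40 for astrocytes. For endothelial cells they were 8.87 to 9.02 in Ts65Dn mice and 8.78 to 9.14 in controls, and the microglia markers averaged 8.96 in Ts65Dn mice and 8.87 in controls, highest in Ts65Dn mouse 4 at 9.21. The array medians over tested rows lay between 7.38 and 7.41, and no arrays were identical.

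The members were then set among their neighbours on Mmu17. Of the other 23 measured genes of the segment, from Pisd-ps2 to Pde10a (chr17:3064318-8986648), 8 passed and were higher, 0 were lower, and the median fold was 1.20, beside 3 of 8 and 1.33 for the members. No test was made between these sets. Sytl3 was not alone near 0, since 10 of the other 23 genes of the segment had a log2 difference under 0.2, among them Ccr6 and T2 at the far end. The called genes on either side of the members had log2 differences of 0.37 for Arid1b and 0.41 for Pde10a. Past the end of the segment, 4 measured genes within 2000000 bases had a median fold of 1.02 and 0 passed. Of the 8 members with a row of their own, 4 had an interval that lay below 1.5-fold, those of Mpc1, Fgfr1op, Prr18 and Sytl3. The same held for 20 of the other 23 genes of the segment and 99.1% of all tested rows. An interval above 1 was found for 6 of the 8 members, beside 13 of the other 23 genes and 406 of the 23410 tested rows.

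**Figure D4:**
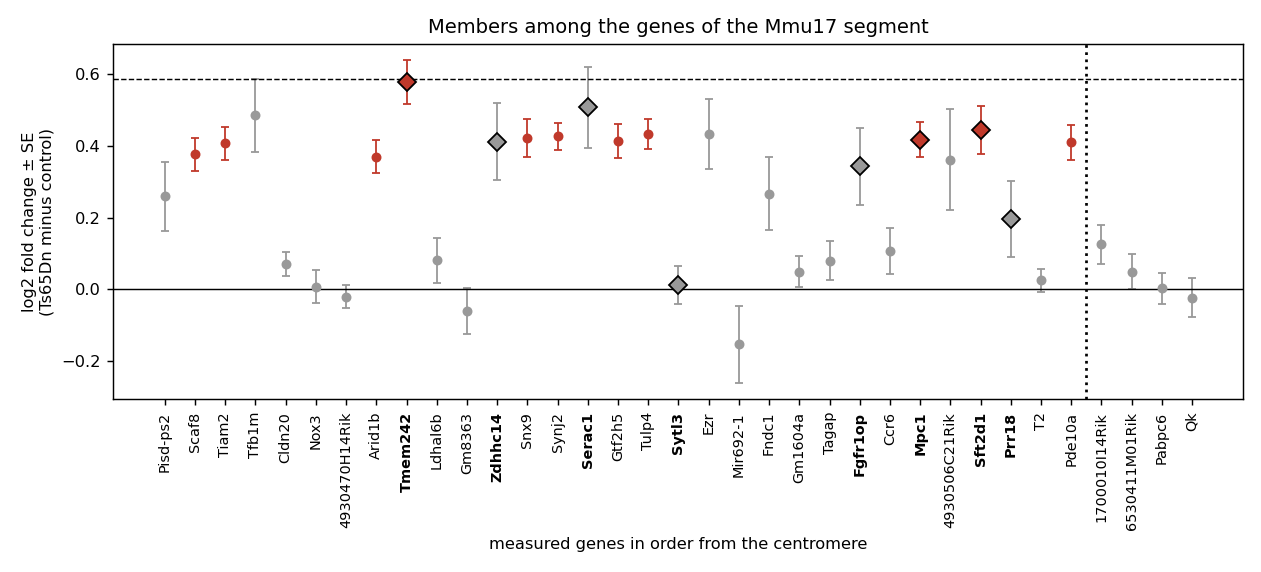
Log2 fold change ± SE (Ts65Dn minus control, vertical axis) of the 31 measured genes of the Mmu17 segment and 4 genes beyond its end (right of the dotted line), in their order from the centromere. Diamonds with bold names are members, red points passed the threshold, and the dashed line marks 1.5-fold. Tmem242 has the largest value of the genes drawn, 0.58, and Sytl3 lies at 0.01.

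**Figure D5:**
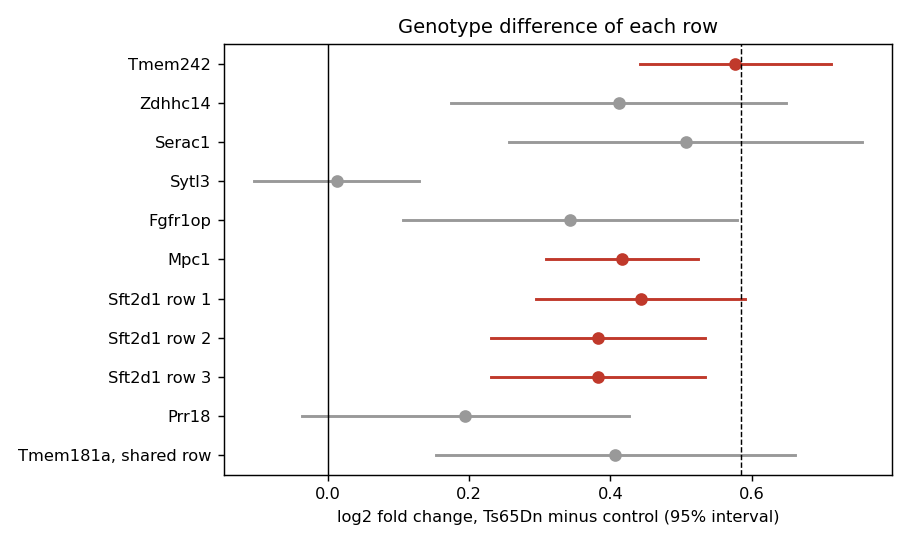
Log2 fold change (Ts65Dn minus control, horizontal axis) of each row of the members and of the row shared by Tmem181a, with its 95% interval. Red rows passed the threshold and the dashed line marks 1.5-fold. Intervals of Tmem242, Zdhhc14, Serac1, row 1 of Sft2d1 and the shared row reach past that line.

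Genes with the most similar profiles over the 10 arrays were sought for the members with the smallest p-values, Tmem242 and Mpc1. Likeness was taken as the root mean square difference of log2 signals, each centred on its own mean, over 19936 genes. For Tmem242 the nearest were Vps26c (0.0522), Cfap298 (0.0781), Rwdd2b (0.0898) and Atp5o (0.0908), with folds of 1.46, 1.42, 1.38 and 1.36. For Mpc1 they were Dscam (0.0682), Gart (0.0710), Dyrk1a (0.0720) and Synj1 (0.0741), with folds of 1.34, 1.32, 1.29 and 1.34. All 8 lie in the Mmu16 part of the minichromosome. The measure favours genes of like fold and small spread. Of all tested rows 73 were called higher, while the Mmu17 segment had 11 called genes, so few called rows could be neighbours. Among these, Tiam2 and Gtf2h5 had log2 differences of 0.41, close to that of Mpc1. Whether the nearest genes fall on Mmu16 more often than its share of called rows was not tested. These profiles share the 10 arrays and the difference between genotypes.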

How the data were processed

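Total RNA of the hippocampi of 5 Ts65Dn and 5 control males was labelled with the Ambion WT Expression Kit and hybridised to Affymetrix Mouse Gene 1.0 ST arrays. The authors deposited log2 signals, normalised with RMA through limma and summarised per transcript cluster, here called a row (build mm10, versions not given in the sources used here). Array scanner files and scan dates were not used here, and the number of arrays limits the precision. All 10 columns of the table were mapped to mice by their labels, and each replicate is labelled as a separate mouse. Rows were named by the platform annotation (21789 rows with 1 symbol, 1621 with several and 12146 with none, of 35556), and 21701 matched RefSeq GRCm38.p6, which also gave coordinates and promoters.

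The 23410 rows with a symbol were fitted with limma 3.58.1 in R 4.3.3 (lmFit and eBayes, Ts65Dn minus control) with Benjamini-Hochberg adjustment over all of them and a threshold of 0.05. A gene with several rows is represented by the row with the highest mean. Single per-mouse differences were compared with exact two-sided permutation tests (scipy 1.17.1). A rank method written after FCROS, the method of the study, was an alternative, with its f value under 0.025 or over 0.975 as the call. Other alternatives changed the rows tested, the normalisation, the variance model, the threshold and the mice, or added the replicate number as a block. The fits were tested on simulated data.

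Every row of the 10 genes is named, with the 2 genes of smallest unadjusted p from each of 7 pathway lists, and for Tmem242 and Mpc1 the 4 nearest profiles. The lists cover pyruvate, cardiolipin, ATP synthase assembly, palmitoylation, Rab27 partners, Golgi transport and the centriole, and 8 marker lists cover cell types and neighbouring regions. Some genes of the marker lists are not reported here. Mpc2 had no row analysed here, so the planned difference of Mpc1 and Mpc2 was not run. Members and lists were chosen with earlier results of these data known.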

Additional observations from a re-analysis of the deposited data

Results flagged for a closer look

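Among 24 groups of 5 mice examined, 1 value stood apart from the others of its genotype by Dixon's criterion, which chance alone meets in about 1 of 20 groups. It was the difference between rows 1 and 2 of Sft2d1 in Ts65Dn mouse 4, at 0.0881 log2 units, where the nearest of the other Ts65Dn mice was at 0.0352. The gap was 0.758 of the range of the group, against a critical value of 0.71. Without this mouse the genotypes still differed in this measure, by 0.0484 (exact permutation p = 0.0159).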

How the results depend on the processing

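Tmem242 and Mpc1 passed under each normalisation, row filter, variance model and threshold tried with limma and without any 1 mouse. With the rank method, 9 of 10 member rows and 7 of 8 genes were called, as was the row shared by Tmem181a. With all rows of the table tested, 3 member rows passed, since rows 2 and 3 of Sft2d1 were lost (adjusted p = 0.0899) when more rows were adjusted over, and at an adjusted p of 0.01 2 rows remained. Leaving out 1 mouse gave 2 to 5 member rows and 2 to 3 genes. The near-0 difference of Sytl3 ranged from -0.0194 to 0.0406 in these fits, and was below 0 without Ts65Dn mouse 2 (-0.00233), Ts65Dn mouse 5 (-0.0194) or control mouse 5 (-0.00578). The cause of the other changes was not tested.

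Leaving out 1 mouse gave 0.182 to 0.271 for Prr18 minus the oligodendrocyte markers and 0.0480 to 0.0699 for row 1 minus row 2 of Sft2d1. With the median of the markers the Prr18 difference was 0.247 (exact permutation p = 0.111).

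The replicate numbers of the labels were tried as a block. Same-numbered mice correlated by 0.507, 0.269, 0.325, 0.0313 and 0.459 for numbers 1 to 5, and 7 of 10 mice correlated best with their own number, a hint from the data that same-numbered mice share something. The labels do not say what a number marks and number 4 was under 0.1, the least asked of every pair, and the block was kept as an alternative. With the block, 5 member rows and 3 genes passed. The difference of 0.230 for Prr18 minus the markers and that of 0.0606 between the Sft2d1 rows each had a paired exact p of 0.0625, the smallest that 5 pairs allow. The planned difference of Mpc1 and Mpc2 was not run, since Mpc2 had no row. With 5 arrays per genotype, differences of the size seen for Zdhhc14, Serac1 and Fgfr1op did not pass at the spread of their mice.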

Other observations

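A row with no gene symbol, chosen after its values were seen, has its identifier between those of Ccr6 and Sft2d1. Its log2 signals were 9.29, 9.02, 9.10, 9.15 and 9.12 in Ts65Dn mice, against 8.83, 8.98, 8.84, 8.97 and 8.94 in controls. Each of the 5 Ts65Dn mice was above every control, and the difference was 0.22 ± 0.05 (log2, SE, n = 5 per genotype; fold 1.17), with a limma adjusted p = 0.477 over all rows of the table.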
